A study of Homo sapiens with 12 samples.

Results

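The genes TNNC1, TNNI1, TNNT1, CASQ1, ATP2A1, ATP2A2, MEF2A and MEF2D make up the set of striated-muscle troponin and calcium-handling genes described here, 8 of the 26439 genes with a usable row in the deposited expression table. They were found by gene symbol, and the set was picked with results from the same knockdown comparison known, so differences between knockdown and control libraries are given for them as values with no test. RNA-Seq was done on 12 libraries of a pair of prostate cancer cell lines, LNCaP-EnzR and C4-2B-EnzR, both grown in enzalutamide, a drug used against prostate cancer. Both are drug-resistant lines, which the paper describes as LNCaP and C4-2B cells made resistant to enzalutamide by months of exposure. LNCaP-EnzR cells were kept at 2 µM and C4-2B-EnzR cells at 10 µM of the drug, in RPMI medium with serum, and each line received lentivirus carrying either the pLKO control (LKO) or a hairpin against the chemokine receptor CXCR7 (shCXCR7), with RNA taken 4 days later. Each of the 4 groups has 3 libraries, and whether these are separate cultures is not said in the labels, so a p-value here measures the spread between libraries that may be technical. Control cells carried a lentivirus and stayed in enzalutamide as well. The sample titles also carry a P number that differs between the lines, and line, drug dose and this number cannot be told apart. Values are RPKM, read counts scaled to gene length and library size, divided by a median-of-ratios factor within each line so that the typical gene has the same level in every library.

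In a striated muscle fibre, calcium released from the sarcoplasmic reticulum binds troponin C (TNNC1 in slow and cardiac muscle), which lifts the block that troponin I (TNNI1, slow skeletal form) places on actin, while troponin T (TNNT1, slow skeletal form) ties the complex to tropomyosin. Calsequestrin (CASQ1, fast skeletal form) buffers calcium inside the reticulum, and the SERCA pumps, ATP2A1 in fast muscle and ATP2A2 in slow muscle, heart and, as a housekeeping form, nearly all cells, return calcium to it. MEF2A and MEF2D are MADS-box transcription factors that work with myogenic factors on muscle genes and are also made in many other tissues.

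Of the 12 libraries, LNCaP-EnzR shCXCR7 replicate 3 stood apart. Reads recovered from the steps of the table put 6373290 to 9820592 reads in genes per library, which were 66.9 to 75.4% of the RPKM denominator in 11 libraries and 27.4% in that one. It listed 1636 genes at 0 against 8719 to 9652 in the others, and 3685 genes were above 0 in it alone, at a median of 0.33 RPKM. Members near that level are therefore given with and without it. The luminal prostate markers KLK3, KLK2, FOLH1, HOXB13, KRT8 and KRT18 were all present, with a summed deposited level of 491 to 677 RPKM in the other 11 libraries and 181 RPKM in replicate 3. Deposited values, used for all markers here, are not rescaled. The factor of replicate 3 was 0.52, against 1.095 to 1.191 for the rest of its line, so its deposited levels are low for genes in general. Of 10 skeletal muscle fibre markers, 8 stayed under 0.5 RPKM in those 11 libraries, and MYOD1 and MYH2 were listed at 0 in all of them. MYOG, the myogenic factor that marks differentiation, reached at most 0.097 RPKM and DES, which encodes the muscle intermediate filament desmin, 0.046 RPKM. The exceptions were MB (myoglobin), at 19.4 to 42.2 RPKM, and ACTA1, at 0.108 to 5.17 RPKM. Without MB, the skeletal list summed to 0.48 to 0.77 RPKM in LNCaP-EnzR control libraries and 0.41 to 0.55 RPKM in C4-2B-EnzR control libraries. After knockdown it summed to 1.16 to 1.45 RPKM in LNCaP-EnzR replicates 1 and 2, 4.31 RPKM in replicate 3 and 2.74 to 5.36 RPKM in C4-2B-EnzR. ACTA1 carried most of this in C4-2B-EnzR cells, since the 8 markers other than MB and ACTA1 summed to 0.297 to 0.341 RPKM in control and 0.197 to 0.393 RPKM in knockdown libraries there. Of the cardiac markers, 5 of 9 were under 0.5 RPKM in the other 11 libraries, as were 5 of 6 fibroblast markers, all but COL1A1, and 6 of 6 blood cell markers. The cardiac list summed to 2.18 to 2.36 RPKM in LNCaP-EnzR control libraries, 3.11 to 3.31 RPKM in knockdown replicates 1 and 2 and 7.44 RPKM in replicate 3. In C4-2B-EnzR cells it summed to 1.08 to 1.74 RPKM in control and 3.98 to 5.95 RPKM in knockdown libraries. All 10 skeletal, 9 cardiac, 6 fibroblast and 6 blood markers were above 0 in replicate 3. What part these low-level signals have in the members' values was not tested. As a check of the knockdown, ACKR3, the gene for CXCR7 on chromosome 2, stood at 113 to 124 RPKM in LNCaP-EnzR control libraries and 39.98 to 56.34 after knockdown, a log2 fold change of -1.28 (SE 0.14, adjusted p = 5.27e-05 from limma). In C4-2B-EnzR cells its control range was 83.3 to 86.5 RPKM and its knockdown range 18.9 to 23.7 RPKM, a log2 fold change of -1.97 (SE 0.09, adjusted p = 1.29e-05). The 2-sided exact permutation test gave p = 0.1 for both lines, which is the lowest possible with 3 libraries against 3.

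**Figure D1:**
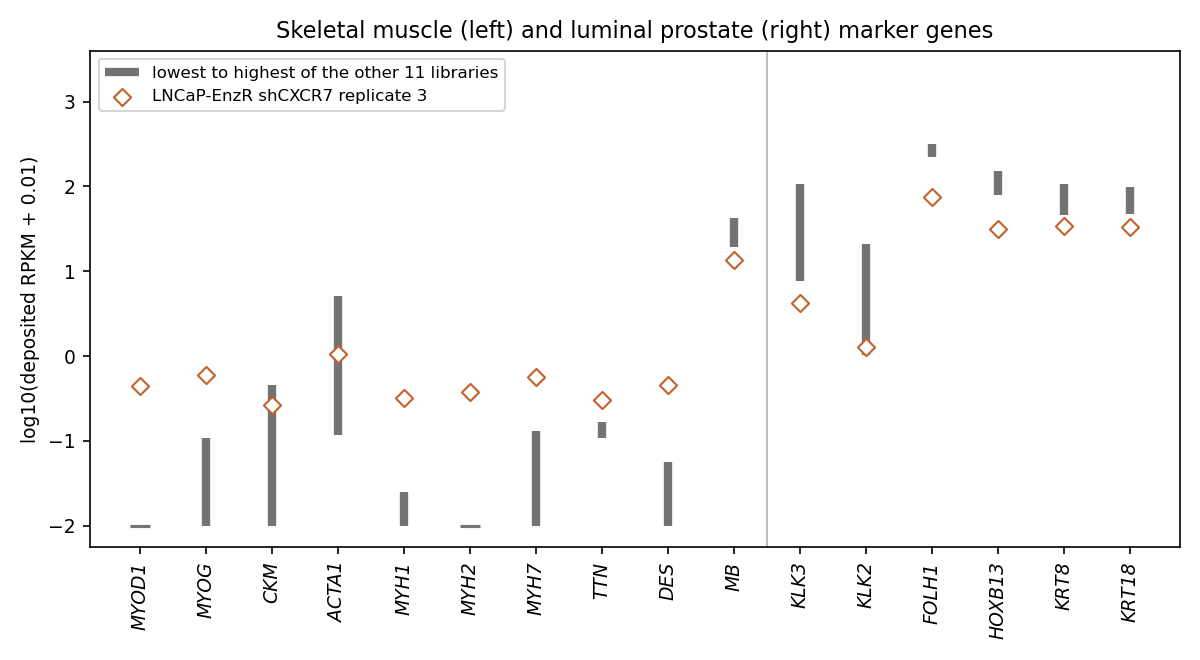
Deposited RPKM of 10 skeletal muscle markers and 6 luminal prostate markers, on a log10 axis after adding 0.01. Values are not rescaled, and the factor of LNCaP-EnzR shCXCR7 replicate 3 was 0.52. Grey bars run from the lowest to the highest of the 11 other libraries and open diamonds show LNCaP-EnzR shCXCR7 replicate 3, which is above every other library for MYOD1, MYOG, MYH1, MYH2, MYH7, TTN and DES and below every other library for MB, KLK3, FOLH1, HOXB13, KRT8 and KRT18.

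The promoters of the members that differed most between groups are shown first, together with 1 of the windows that carry matches to a MEF2 site, since MEF2 factors are themselves members. Sequences are RefSeq windows on GRCh38.p14 from 250 bases before to 50 after a start site, printed on the gene's own strand, and 6 of the 8 members have an entry in the table used. TNNC1 and TNNI1 have none there. Capitals mark matches to the MEF2 site, to the E-box (CANNTG, the motif of myogenic helix-loop-helix factors) or to TATAAA, searched on both strands. The ATP2A2 window shown lies at chr12:110280366-110280665 on the + strand, the CASQ1 window at chr1:160190325-160190624 on the + strand and the TNNT1 window at chr19:55149157-55149456 on the - strand.
ATP2A2: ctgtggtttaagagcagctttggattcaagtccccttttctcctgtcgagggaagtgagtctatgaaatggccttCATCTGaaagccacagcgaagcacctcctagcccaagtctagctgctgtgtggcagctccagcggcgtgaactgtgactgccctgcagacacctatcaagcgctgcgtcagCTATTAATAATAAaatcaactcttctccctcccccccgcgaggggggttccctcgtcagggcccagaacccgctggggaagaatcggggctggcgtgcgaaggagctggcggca
CASQ1: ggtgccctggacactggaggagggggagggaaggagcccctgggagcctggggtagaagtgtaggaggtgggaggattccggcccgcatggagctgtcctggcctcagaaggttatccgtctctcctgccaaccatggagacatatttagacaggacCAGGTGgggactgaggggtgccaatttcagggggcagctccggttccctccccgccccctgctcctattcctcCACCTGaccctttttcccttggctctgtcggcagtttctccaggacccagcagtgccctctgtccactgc
TNNT1: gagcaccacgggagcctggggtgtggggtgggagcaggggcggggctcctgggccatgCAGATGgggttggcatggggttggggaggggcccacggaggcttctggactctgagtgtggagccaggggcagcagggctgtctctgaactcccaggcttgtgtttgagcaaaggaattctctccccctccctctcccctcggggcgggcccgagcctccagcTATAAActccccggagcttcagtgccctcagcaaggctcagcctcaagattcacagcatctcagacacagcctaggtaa
In the ATP2A2 window shown, 2 overlapping MEF2 matches begin 64 and 61 bases before the start site, so the long run in capitals covers both. A second ATP2A2 window, at chr12:110280997-110281296, has no MEF2 match and 1 E-box. A MEF2 match was found in 2.99% of 35116 promoter windows, an E-box in 68.7% and TATAAA in 11.5%. The CASQ1 window has 2 E-boxes and no MEF2 match, and the TNNT1 window has 1 E-box and TATAAA 29 bases before the start. Of the 3 MEF2A windows, 1 carried a MEF2 match, 23 bases before its start site. No window of the 6 members held a CArG box, the site of serum response factor, which 1.29% of all windows hold. These are matches of letters and say nothing of whether a factor binds there.

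TNNC1 was above every control library after knockdown in both lines. The gene lies on chromosome 3 from 52451100 to 52454041 on the - strand of GRCh38 and has 6 exons in its canonical GENCODE transcript. In LNCaP-EnzR cells the LKO libraries held TNNC1 at 3.17, 2.17 and 1.90 RPKM and the shCXCR7 libraries at 3.404, 3.502 and 3.799 RPKM. In C4-2B-EnzR cells the control values were 0.469, 0.296 and 0.570 RPKM, and the shCXCR7 values were 1.98, 3.01 and 0.838 RPKM. The groups did not overlap in either line, but the lowest knockdown library of C4-2B-EnzR, replicate 3, was much nearer to control than the other two. The log2 fold change was 0.55 (SE 0.16) in LNCaP-EnzR and 1.54 (SE 0.38) in C4-2B-EnzR cells. In C4-2B-EnzR cells TNNC1 passed the filter on low values through the knockdown group, since only control replicate 3 reached 0.5 RPKM. The C4-2B-EnzR control level rests on 4, 2 and 5 reads, against 17, 24 and 7 after knockdown. Summed, these give a ratio of 4.21 with a 95% counting interval from 2.15 to 8.98 (exact, counting error only). TNNC2, the fast-muscle troponin C, was under 0.75 RPKM in all libraries but LNCaP-EnzR shCXCR7 replicate 3, where it stood at 1.59 RPKM.

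TNNI1 was low in every group, and its groups overlapped in both lines. It lies on chromosome 1 from 201403784 to 201429866 on the - strand, with 9 exons. LNCaP-EnzR control libraries gave 0.952, 1.25 and 0.942 RPKM, and the shCXCR7 libraries gave 0.736, 0.783 and 1.80 RPKM. The third of these is the library that stood apart, and it alone exceeded the controls, while the other two were below all of them. The log2 fold change was -0.01 (SE 0.30) with it and -0.36 (SE 0.18) without it. In C4-2B-EnzR cells TNNI1 stood at 0.758, 1.19 and 0.633 RPKM in control and 0.882, 0.739 and 0.922 RPKM in knockdown libraries, a log2 fold change of 0.01 (SE 0.22). These values come from 49 to 205 reads per library, so depth was not as thin here as for TNNC1. The fast form TNNI2 was listed at 0 in 10 of the 12 libraries, and stood at 1.74 RPKM in LNCaP-EnzR shCXCR7 replicate 3.

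TNNT1 was lower after knockdown in C4-2B-EnzR cells, and in LNCaP-EnzR cells in replicates 1 and 2. The gene lies on chromosome 19 from 55132698 to 55149206 on the - strand, with 14 exons. In C4-2B-EnzR cells the control libraries stood at 1.87, 2.21 and 2.64 RPKM and the shCXCR7 libraries at 1.19, 1.35 and 0.677 RPKM. All knockdown values lay below all control values, with a log2 fold change of -0.94 (SE 0.23), from 105 reads in control and 52 in knockdown libraries. In LNCaP-EnzR cells TNNT1 stood at 0.708, 0.837 and 0.488 RPKM in control libraries and at 0.053, 0.0923 and 1.24 RPKM after knockdown. Knockdown replicates 1 and 2 hold 1 and 2 reads of the gene, and replicate 3 holds 31, so the group spans values from near nothing to above every control. The log2 fold change was -0.77 (SE 0.61) over all 6 libraries and -1.60 (SE 0.28) without replicate 3. Over all 6, TNNT1 only just passed the filter, reaching 0.5 RPKM in control replicates 1 and 2 and knockdown replicate 3. Without that library it passed only through the control group. Over all 6 libraries the summed reads were 36 in control and 34 in knockdown libraries, a ratio of 0.75 with a 95% counting interval from 0.454 to 1.23. Without replicate 3 they were 36 and 3, a ratio of 0.107 with an interval from 0.0211 to 0.339. The troponin T forms of other muscle types were in the same low range outside replicate 3, with cardiac TNNT2 at 0.788 to 1.13 RPKM in LNCaP-EnzR control and 0.231 to 0.427 RPKM in C4-2B-EnzR control libraries. Of the 3 troponin T genes, TNNT1 made up 40.6% ± 6.42 of the summed level in LNCaP-EnzR control libraries and 84.1% ± 2.34 in those of C4-2B-EnzR (SD, n = 3 each).

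**Figure D2:**
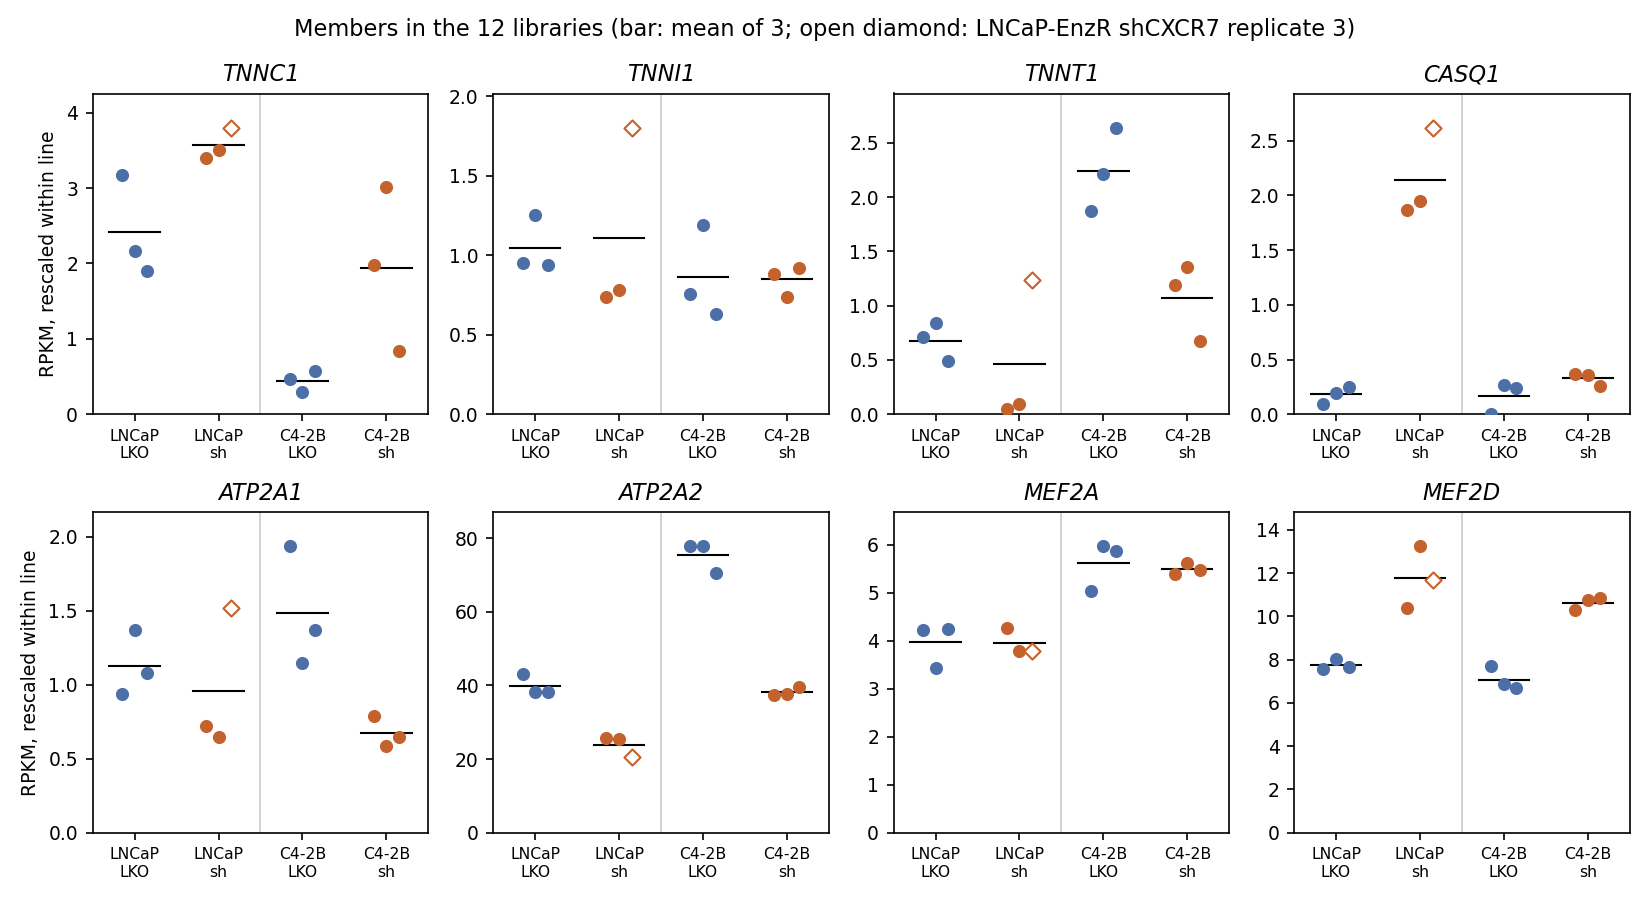
RPKM, rescaled within each line, of the 8 members in 12 libraries, with control (blue) and shCXCR7 (orange) libraries of LNCaP-EnzR and C4-2B-EnzR cells, each axis starting at 0. Bars are means of 3 libraries and the open diamond is LNCaP-EnzR shCXCR7 replicate 3, which is the highest LNCaP-EnzR library for TNNC1, TNNI1, TNNT1, CASQ1 and ATP2A1.

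The transcripts of the troponin subunits therefore did not keep a fixed proportion. In control LNCaP-EnzR libraries TNNC1 was 3.65 ± 0.96 times the level of TNNT1 (per length, SD, n = 3), and in control C4-2B-EnzR libraries 0.200 ± 0.060 times. After knockdown the C4-2B-EnzR ratio was 1.24 to 2.22, above every control library of that line. In LNCaP-EnzR cells it was 64.2 and 37.9 in knockdown replicates 1 and 2, on 1 and 2 reads of TNNT1, and 3.08 in replicate 3.

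CASQ1 showed the largest difference of the 8 genes, and it was in LNCaP-EnzR cells. It lies on chromosome 1 from 160190575 to 160201886 on the + strand, with 11 exons. LNCaP-EnzR control libraries stood at 0.0979, 0.193 and 0.253 RPKM and knockdown libraries at 1.87, 1.95 and 2.62 RPKM. The groups were far apart, 14 reads in control against 207 in knockdown libraries, a ratio of 11.7 with a 95% counting interval from 6.83 to 21.8. Without replicate 3 the ratio was 10.3, with an interval from 5.87 to 19.4. The log2 fold change was 2.48 (SE 0.28), a value that depends on the added pseudocount of 0.25, since it was 3.29 with 0.05 and 1.41 with 1. CASQ1 passed the filter on low values in LNCaP-EnzR cells only through the knockdown group, and it failed the filter in C4-2B-EnzR cells. There the control libraries stood at 0, 0.264 and 0.243 RPKM and the knockdown libraries at 0.372, 0.357 and 0.255 RPKM, so the groups overlapped. The 0 allows up to 3 reads, or 0.125 RPKM. Summed C4-2B-EnzR reads were 11 and 23, a ratio of 2.02 with a 95% counting interval from 0.944 to 4.58. The heart form CASQ2 was listed at 0 in 11 libraries and stood at 0.879 RPKM in LNCaP-EnzR shCXCR7 replicate 3.

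ATP2A2, the SERCA pump found in most cells, had the highest level of the set and was lower after knockdown in all 6 libraries. It lies on chromosome 12 from 110280756 to 110351093 on the + strand, with 20 exons. LNCaP-EnzR libraries gave 43.2, 38.1 and 38.3 RPKM in control and 25.7, 25.4 and 20.7 RPKM in knockdown libraries. C4-2B-EnzR libraries gave 77.8, 77.8 and 70.6 RPKM in control and 37.4, 37.8 and 39.5 RPKM in knockdown libraries. The groups did not overlap in either line, and the knockdown mean as a share of control was 60.0% for LNCaP-EnzR cells and 50.7% for C4-2B-EnzR cells. The log2 fold changes were -0.74 (SE 0.11) and -0.97 (SE 0.07), on 2978 to 7913 reads per library. Rescaled within each line, control LNCaP-EnzR libraries stood at 39.9 ± 2.90 RPKM and knockdown C4-2B-EnzR libraries at 38.2 ± 1.13 RPKM (SD, n = 3 each). Values on these separate scales are not a comparison of the lines. As deposited, the same libraries held 42.5 to 47.3 RPKM and 38.1 to 39.7 RPKM, without overlap.

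ATP2A1, the fast-muscle pump, was also below control in every C4-2B-EnzR knockdown library. It lies on chromosome 16 from 28878405 to 28904466 on the + strand, with 23 exons. C4-2B-EnzR control libraries stood at 1.94, 1.15 and 1.37 RPKM and knockdown libraries at 0.789, 0.584 and 0.650 RPKM, a log2 fold change of -0.89 (SE 0.21). LNCaP-EnzR control libraries stood at 0.935, 1.37 and 1.08 RPKM and knockdown libraries at 0.720, 0.644 and 1.52 RPKM. Replicate 3 was again above the controls and the other two below them, and the log2 fold change was -0.25 (SE 0.29) with it and -0.57 (SE 0.19) without it. The span of the gene, introns included, overlaps by 1534 bases that of ATP2A1-AS1, a long noncoding gene on the opposite strand. How much of this is exon in both was not measured. With no strand setting given, reads from any shared exon cannot be told apart. ATP2A1-AS1 stood at 2.19 to 4.24 deposited RPKM in LNCaP-EnzR control libraries and 2.00, 2.29 and 0.672 in the knockdown libraries, the last being replicate 3, which is not rescaled here. C4-2B-EnzR libraries gave 1.87 to 2.84 deposited RPKM in control and 0.768 to 2.11 in knockdown libraries. ATP2A1 and ATP2A2 share no 50-base stretch in 4195 such windows of ATP2A1 transcripts, so reads of that length have an exact match to one of them only. ATP2A2 made up 97.2% ± 0.69 of the summed SERCA level in LNCaP-EnzR control libraries and 97.8% ± 0.48 in C4-2B-EnzR control libraries, and 97.8% ± 0.39 in C4-2B-EnzR knockdown libraries (SD, n = 3 each). In LNCaP-EnzR knockdown libraries it was 97.2%, 97.5% and, in replicate 3, 88.5%. The third SERCA gene, ATP2A3, was at 0.013 to 0.253 RPKM outside LNCaP-EnzR shCXCR7 replicate 3, where it stood at 1.17 RPKM.

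MEF2A did not separate the groups in either line. It lies on chromosome 15 from 99565417 to 99716488 on the + strand, with 12 exons. Its span, introns included, overlaps that of LYSMD4 on the opposite strand by 792 bases. LNCaP-EnzR control libraries stood at 4.23, 3.44 and 4.24 RPKM and knockdown libraries at 4.27, 3.79 and 3.78 RPKM, a log2 fold change of 0.00 (SE 0.11). C4-2B-EnzR control libraries stood at 5.03, 5.96 and 5.86 RPKM and knockdown libraries at 5.40, 5.62 and 5.48 RPKM, a log2 fold change of -0.03 (SE 0.09). Each library held 261 to 437 reads of the gene, so these errors are among the smaller of the set.

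MEF2D was higher after knockdown in both lines, by nearly the same factor. It lies on chromosome 1 from 156463727 to 156500779 on the - strand, with 12 exons. LNCaP-EnzR control libraries stood at 7.55, 8.04 and 7.67 RPKM and knockdown libraries at 10.4, 13.2 and 11.7 RPKM. C4-2B-EnzR control libraries stood at 7.71, 6.86 and 6.67 RPKM and knockdown libraries at 10.3, 10.7 and 10.9 RPKM. All 6 knockdown libraries were above all control libraries of their line, with log2 fold changes of 0.58 (SE 0.10) and 0.57 (SE 0.08), or 151.8% and 150.1% of control. The share of MEF2D in the summed MEF2 level was 65.1% ± 3.34 in control and 73.4% ± 3.06 in knockdown LNCaP-EnzR libraries, and 55.3% ± 3.59 and 65.6% ± 0.36 in C4-2B-EnzR libraries (SD, n = 3 each). MEF2C, the family member prominent in muscle and neurons, was at 0.024 RPKM or less outside LNCaP-EnzR shCXCR7 replicate 3, where it stood at 0.448 RPKM.

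**Figure D3:**
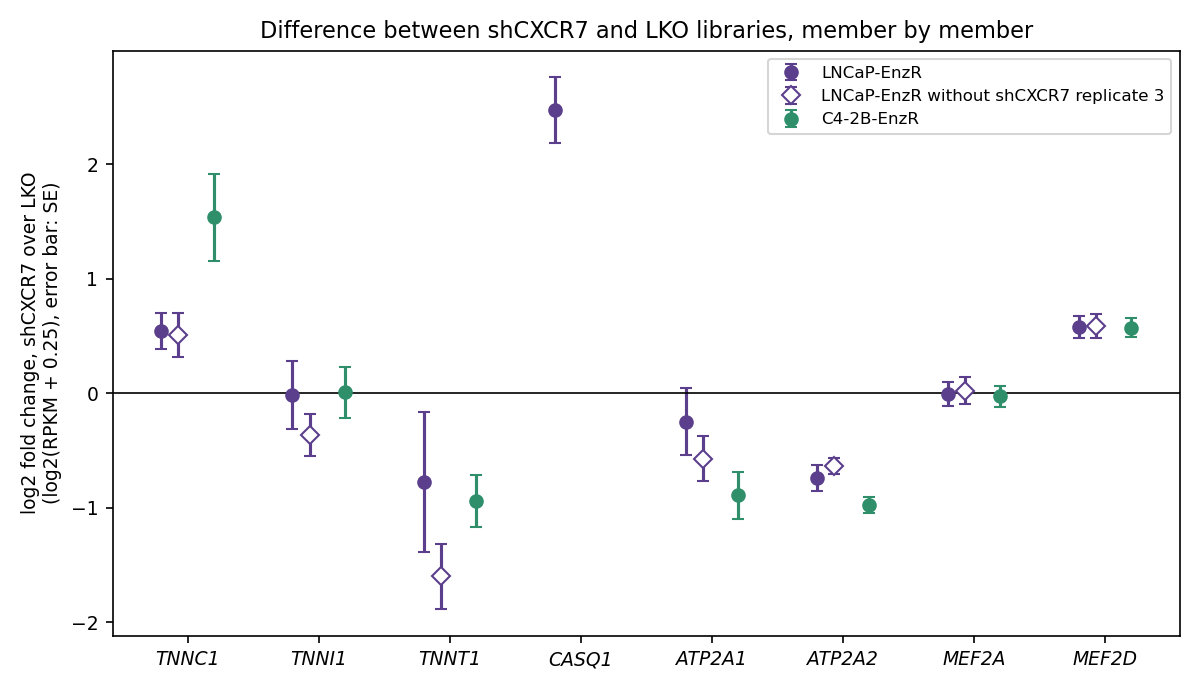
Log2 fold change of shCXCR7 over LKO for each member, with its standard error, on values of log2(RPKM + 0.25), in LNCaP-EnzR (circles, left), LNCaP-EnzR without shCXCR7 replicate 3 (open diamonds) and C4-2B-EnzR cells (circles, right). CASQ1 has only 1 point since it failed the filter elsewhere, and TNNI1, TNNT1 and ATP2A1 move downward when that library is left out.

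In LNCaP-EnzR cells knockdown and control groups did not overlap, knockdown being higher, for 3 of the 8 members, TNNC1, CASQ1 and MEF2D, where 22.5% of all 13092 genes tested were placed so, and for 1 member, ATP2A2, knockdown was lower, where 27.5% of genes were. Without shCXCR7 replicate 3, TNNI1, TNNT1 and ATP2A1 joined ATP2A2, making 4 members with knockdown lower, where 33.7% of 12839 genes were lower without overlap. In C4-2B-EnzR cells knockdown was higher without overlap for 2 members, TNNC1 and MEF2D, where 27.3% of 13342 genes were, and lower for 3, TNNT1, ATP2A1 and ATP2A2, where 27.1% were. The set was chosen from this comparison, so nothing is read from these counts. All 8 members were tested in LNCaP-EnzR cells, with a median log2 fold change of -0.01, beside -0.02 over all genes. In C4-2B-EnzR cells 7 were, with a median of -0.03, beside 0.00 over all genes. In bulk RNA, fewer cells making a transcript and less transcript per cell cannot be told apart.

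Ordered by level, ATP2A2, MEF2D and MEF2A led in every group, without overlap between neighbours among them. In control LNCaP-EnzR libraries TNNC1 followed, then ATP2A1 and TNNI1, which overlapped, then TNNT1 and CASQ1. In control C4-2B-EnzR libraries the next were TNNT1, ATP2A1 and TNNI1, each overlapping the one before, then TNNC1 and CASQ1. After knockdown in LNCaP-EnzR cells TNNC1 overlapped MEF2A, CASQ1 came next, and TNNI1, ATP2A1 and TNNT1 overlapped one another. After knockdown in C4-2B-EnzR cells TNNC1, TNNT1, TNNI1 and ATP2A1 followed MEF2A, each overlapping the one before, and CASQ1 was the lowest.

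The control libraries of the lines were then compared. This contrast shares its libraries with the knockdown comparison behind the choice of the set, so the p-values below are not independent of that choice. TNNC1 and MEF2D were lower and TNNT1 and ATP2A2 higher in C4-2B-EnzR than in LNCaP-EnzR cells, and 7 of the 8 members were tested, CASQ1 being below the filter. TNNC1 stood at 3.63, 2.48 and 2.18 RPKM in LNCaP-EnzR and at 0.449, 0.282 and 0.540 RPKM in C4-2B-EnzR control libraries, rescaled over these 6. The difference was -2.15 on the log2 scale (SE 0.23, adjusted p = 9.56e-05 from limma), on 4, 2 and 5 reads in C4-2B-EnzR cells. TNNC1 passed the filter on low values here through the LNCaP-EnzR libraries, where it was higher. In C4-2B-EnzR cells only control replicate 3 reached 0.5 RPKM, so nothing further is read from this p-value. TNNT1 went the other way, from 0.812, 0.956 and 0.561 RPKM to 1.788, 2.101 and 2.4985 RPKM, a log2 difference of 1.22 (SE 0.19, adjusted p = 0.000782). So of these troponin subunit transcripts, that of the calcium sensor was lower and that of the tropomyosin-binding part higher in the same libraries, and for both the lines did not overlap. ATP2A2 stood at 49.6, 43.5 and 44.1 RPKM in LNCaP-EnzR and 74.3, 73.9 and 66.9 RPKM in C4-2B-EnzR cells, a log2 difference of 0.65 (SE 0.08, adjusted p = 0.00018). MEF2D stood at 8.66, 9.17 and 8.82 RPKM against 7.37, 6.53 and 6.31 RPKM, a log2 difference of -0.39 (SE 0.08, adjusted p = 0.00419). The other members tested did not pass, which does not show that they were equal. TNNI1 gave -0.46 (SE 0.21, adjusted p = 0.0908), MEF2A gave 0.22 (SE 0.12, adjusted p = 0.125) and ATP2A1 gave 0.10 (SE 0.20, adjusted p = 0.698). Over all 13370 genes tested, 32.8% were called higher and 32.0% lower in C4-2B-EnzR cells, so 2 of 7 in each direction is near what the whole table shows. TNNI1 passed under 3 alternatives, among them leaving out C4-2B-EnzR LKO replicate 2, with adjusted p from 0.0147 to 0.261 over all alternatives. MEF2A passed on values as deposited (adjusted p = 0.0492).

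**Figure D4:**
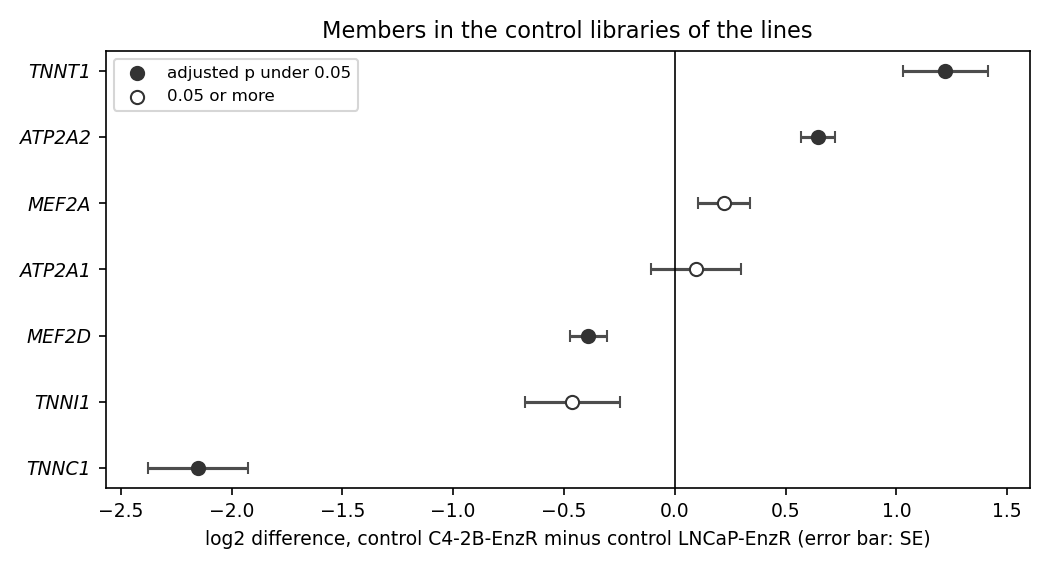
Log2 difference between control libraries, C4-2B-EnzR minus LNCaP-EnzR, for 7 members with its standard error. Filled points passed an adjusted p of 0.05 and open points did not, and TNNC1 at -2.15 and TNNT1 at 1.22 lie at the opposite ends.

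Other genes of the same pathways, in 6 lists of 121 genes, were tested for the knockdown in each line, 56 of them for LNCaP-EnzR and 54 for C4-2B-EnzR, the rest being below the filter. These lists too were chosen with earlier results of these data known. Their p-values and counts are therefore not an independent check of the members. In these counts, rose and fell mean called at an adjusted p under 0.05. In LNCaP-EnzR cells 11 rose (19.6%, beside 16.0% of all genes) and 15 fell (26.8%, beside 21.3%). In C4-2B-EnzR cells 8 rose (14.8%, beside 20.9% of all genes) and 15 fell (27.8%, beside 21.3%). The same shares of all genes stand beside the counts of each list below. Of the genes called in either line, 15 were called in both, all in the same direction. Without LNCaP-EnzR shCXCR7 replicate 3, 12 rose and 16 fell of 54 tested, 25 of these being among the 26 called with it.

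Of the thin filament genes, those that passed over all libraries of a line rose, 3 of 11 tested in LNCaP-EnzR and 4 of 9 in C4-2B-EnzR cells, out of 19 listed. Without LNCaP-EnzR shCXCR7 replicate 3, 3 rose and 1 fell of 9 tested in that line, the one that fell being TNNT2, the cardiac troponin T, named after its values were seen, at -0.93 on the log2 scale (adjusted p = 0.0122), against -0.26 (adjusted p = 0.7) with that library. ACTA1, skeletal actin, stood at 0.193, 0.211 and 0.111 RPKM in LNCaP-EnzR control and 0.914, 0.712 and 2.03 RPKM in knockdown libraries, a log2 fold change of 1.70 (SE 0.43, adjusted p = 0.0103). In C4-2B-EnzR cells ACTA1 went from 0.219, 0.207 and 0.106 to 3.52, 2.28 and 5.14 RPKM, a log2 fold change of 3.13 (SE 0.28, adjusted p = 0.000136). ACTA1 passed the filter in each line only through the knockdown group. Its control libraries held 3, 5 and 2 reads for LNCaP-EnzR and 4, 3 and 2 for C4-2B-EnzR. Leaving out any knockdown library of a line put ACTA1 below the filter there, so neither call could be tested in that way. The tropomyosin genes, whose products lie along actin and in striated muscle anchor troponin T, were far more abundant. TPM4, a form common outside muscle, stood at 12.04, 11.95 and 13.1 RPKM in LNCaP-EnzR control and 41.0, 39.8 and 30.9 RPKM in knockdown libraries, and at 15.2, 16.3 and 18.4 against 75.2, 70.6 and 87.9 RPKM in C4-2B-EnzR cells. Its log2 fold changes were 1.56 (SE 0.12, adjusted p = 7.4e-06) and 2.21 (SE 0.11, adjusted p = 1.58e-05). TPM3 rose in both lines, by 0.34 and 0.71 on the log2 scale (adjusted p = 0.0142 and 0.000728), and lost its LNCaP-EnzR call on leaving out LKO replicate 1 or shCXCR7 replicate 1 or 2, with an adjusted p of at most 0.0746. TPM1 rose by 0.95 in C4-2B-EnzR cells (adjusted p = 0.000195) and gave 0.25 in LNCaP-EnzR cells (adjusted p = 0.0839, passing without shCXCR7 replicate 3). So the tropomyosin genes that passed rose while TNNT1 had lower values in the same C4-2B-EnzR libraries. Values per gene do not show which tropomyosin forms were made or whether any complex formed.

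Of 32 thick filament and Z disc genes, only 6 for LNCaP-EnzR and 5 for C4-2B-EnzR were above the filter. MYBPC1, the slow form of myosin-binding protein C, rose in both lines, from 0.738 to 0.844 RPKM in LNCaP-EnzR control to 3.52 to 3.90 RPKM in knockdown libraries (log2 fold change 1.94, SE 0.13, adjusted p = 4e-06). In C4-2B-EnzR cells MYBPC1 went from 0.077 to 0.197 RPKM to 0.562 to 0.766 RPKM (log2 fold change 1.28, SE 0.25, adjusted p = 0.00513). It passed the filter in C4-2B-EnzR cells only through the knockdown group, on 6, 3 and 10 reads in control libraries, and was not tested when any knockdown library of that line was left out. MYOZ1 and MYL6B fell in LNCaP-EnzR cells by 0.65 and 0.55 (adjusted p = 0.0186 and 0.00144), and MYOZ1 lost its call with no filter (adjusted p = 0.0667) and with no variance trend (adjusted p = 0.0528).

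Among 30 genes of reticulum calcium handling, 5 rose and 6 fell of 16 tested in LNCaP-EnzR cells, and 1 rose and 4 fell of 17 tested in C4-2B-EnzR cells. RYR2, the ryanodine receptor that releases calcium in heart and brain, stood at 0.732, 0.639 and 0.555 RPKM in LNCaP-EnzR control and 1.47, 1.43 and 2.26 RPKM in knockdown libraries, and at 0.446 to 0.586 against 1.18 to 1.34 RPKM in C4-2B-EnzR cells. It rose by 1.122 (adjusted p = 0.00338) and 0.97 (adjusted p = 0.00297) on the log2 scale. Among the IP3 receptors, which release calcium from the reticulum of most cells, ITPR1 rose from 2.69 to 3.12 RPKM in control to 5.29 to 5.93 RPKM in knockdown LNCaP-EnzR libraries (log2 fold change 0.87, SE 0.10, adjusted p = 6.98e-05), and gave -0.29 in C4-2B-EnzR cells (SE 0.13, adjusted p = 0.0992). The difference between the lines was -1.16 on the log2 scale (interaction term, adjusted p = 0.000951). ITPR2 rose by 0.82 in LNCaP-EnzR cells (adjusted p = 0.0106) and lost this call without shCXCR7 replicate 1 (adjusted p = 0.0578). TMEM38A, a channel of the muscle reticulum that balances charge during calcium release, fell there by 0.77 (adjusted p = 0.00596).

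At the cell surface no tested gene was called higher, though values above 0 were seen among genes not called. Called lower were 3 of 6 in LNCaP-EnzR and 4 of 6 in C4-2B-EnzR cells, out of 12 listed, beside 21.3% of all genes in each line. CACNB3, a calcium channel beta subunit, went from 6.64 to 7.74 RPKM in control to 3.23 to 3.55 RPKM in knockdown LNCaP-EnzR libraries, and from 15.3 to 19.8 RPKM to 10.1 to 11.7 RPKM in C4-2B-EnzR libraries (log2 fold changes -1.04 and -0.66, adjusted p = 1.78e-05 and 0.00239). ATP2B4, a pump that moves calcium out of the cell, fell by 0.56 and by 0.87 on the log2 scale (adjusted p = 0.00569 and 0.00046), beside the lower values of the reticulum pump ATP2A2 in the same libraries. CACNA1D fell by 1.095 in LNCaP-EnzR cells (adjusted p = 0.0122) and CACNB1 by 0.60 in C4-2B-EnzR cells (adjusted p = 0.00674).

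Of the MEF2 family and its partners, 13 of 16 genes were tested, of which 1 rose and 2 fell in LNCaP-EnzR and 1 rose and 5 fell in C4-2B-EnzR cells. PPP3CA, the calcineurin catalytic subunit that activates MEF2 through dephosphorylation, was the most abundant of them and fell in both lines. It stood at 231, 224 and 233 RPKM in LNCaP-EnzR control and 72.0, 62.5 and 52.2 RPKM in knockdown libraries, and at 94.9, 110 and 112 against 39.5, 41.4 and 38.6 RPKM in C4-2B-EnzR cells. The log2 fold changes were -1.89 (SE 0.13, adjusted p = 5.36e-06) and -1.40 (SE 0.08, adjusted p = 2.77e-05). CAMK2G and CAMK2D, calcium and calmodulin dependent kinases that act on the deacetylases bound to MEF2, went in different directions. CAMK2G fell by 1.06 and by 0.90 (adjusted p = 3.81e-05 and 6.17e-05), while CAMK2D rose by 1.21 in C4-2B-EnzR cells (adjusted p = 0.000572) and gave 0.19 in LNCaP-EnzR cells (adjusted p = 0.148, passing without shCXCR7 replicate 3). HDAC4, one of those deacetylases, fell from 1.44 to 1.55 RPKM to 0.613 to 0.706 RPKM in C4-2B-EnzR cells (log2 fold change -0.92, adjusted p = 0.00201). In LNCaP-EnzR cells it gave -0.24 (adjusted p = 0.511).

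Of 12 myogenic transcription factors only 4 were above the filter in each line. SRF, serum response factor, which drives actin and other cytoskeletal genes, rose from 7.84 to 8.63 RPKM to 15.2 to 19.5 RPKM in LNCaP-EnzR and from 11.5 to 12.6 RPKM to 23.1 to 26.7 RPKM in C4-2B-EnzR cells. Its log2 fold changes were 1.01 (SE 0.10, adjusted p = 4.63e-05) and 1.02 (SE 0.08, adjusted p = 8e-05). SIX4 fell by 0.65 and by 1.07 (adjusted p = 0.0239 and 0.00119), and its LNCaP-EnzR call was lost on leaving out any 1 of the other 5 libraries of that line, though not shCXCR7 replicate 3, with an adjusted p of at most 0.0841. Over the 6 lists, the shCXCR7 effect differed between the lines for 6 of 60 genes (ITPR1, CAMK2D, TPM1, TPM4, ITPR3 and CALU), beside 10.0% of all 14239 genes tested.

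**Figure D5:**
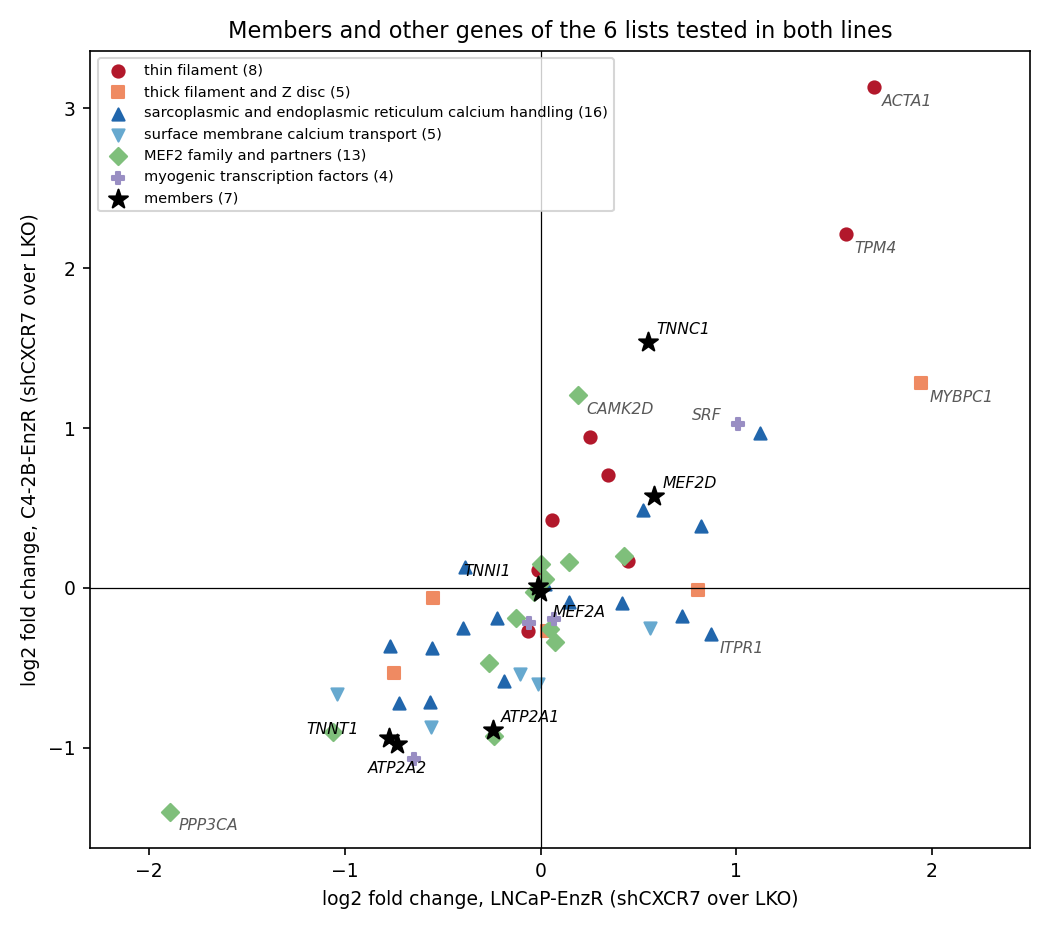
Log2 fold change of shCXCR7 over LKO in LNCaP-EnzR (x axis) and C4-2B-EnzR cells (y axis) for the genes of 6 pathway lists above the filter in both lines (numbers in the key) and for 7 members (stars). ACTA1, TPM4, MYBPC1 and SRF lie at the upper right, PPP3CA at the lower left, and TNNT1, ATP2A1 and ATP2A2 among the genes below 0 in both.

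Across the 12 libraries, the genes whose pattern was most like that of a member were found by Pearson r on log2 values, among 12133 genes with a mean of at least 1 RPKM. For ATP2A2 these included IGF2R and APP (r = 0.992 each), and for MEF2D they were MIDN, SIX5 and CACFD1 (r = 0.985, 0.979 and 0.972). TNNC1 was most like YTHDF3-AS1, CASP9 and DUSP22 (r from 0.95 to 0.964), TNNT1 most like BRICD5, RIMS3 and ZSCAN20 (r from 0.934 to 0.95), and CASQ1 most like ATF7IP, LIX1L and PEG3 (r from 0.949 to 0.964). ATP2A1 was most like ELFN2, SLC25A25-AS1 and AOC2 (r from 0.884 to 0.927), MEF2A most like NAB1, PRKRIR and SLK (r from 0.886 to 0.892) and TNNI1 most like EBLN2, ZNF2 and N4BP3 (r from 0.846 to 0.852). These libraries share 2 lines and 2 treatments, so differences between the 4 groups enter these values. LNCaP-EnzR shCXCR7 replicate 3 enters them too, as the highest LNCaP-EnzR library for TNNC1, TNNI1, TNNT1, CASQ1 and ATP2A1. No r was computed without that library, so its part in the likeness was not tested.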

How the data were processed

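Total RNA was made into libraries with a NEBNext Ultra kit and sequenced single-end on an Illumina HiSeq instrument. The authors aligned reads with STAR to hg38 and deposited 1 table of RPKM (called FPKM in their methods, the same unit for single-end reads), made from gene counts with an in-house script, with no scaling between libraries. Which annotation, strand setting and hairpin were used was not given in the sources used here. DESeq2 on counts, the study's own test, was not run, since the table holds no counts.

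Of 26475 lines, 32 without values and 4 with repeated symbols were left out, and no column lacked a sample. The members and the gene lists were chosen with earlier results of these data known. Values were divided by median-of-ratios factors over genes above 0 in every library of a fit, which were 0.52 for LNCaP-EnzR shCXCR7 replicate 3 and 1.095 to 1.191 for the other libraries of that line. Genes reaching 0.5 RPKM in 3 or more libraries were fitted on log2(RPKM + 0.25) with limma 3.58.1 (R 4.3.3), with empirical Bayes and a variance trend, and p-values were Benjamini-Hochberg adjusted over all genes tested and called under 0.05. Fold changes on this scale understate the change of low genes. Lines were fitted separately, the control libraries together, and the difference between lines as an interaction over 12 libraries. Whole reads were computed from the steps of the RPKM values, within 0.02 reads for 25010 of 25028 genes above 0 (99.93%), and voom on these reads was added after the data were seen. Counting intervals are exact 95% binomial intervals and cover counting error only. The scripts were tested on simulated data.

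Named genes were the members, ACKR3, up to 4 genes per list with the largest change among those called in either line, and the 3 genes most like each member. The lists are thin filament, thick filament and Z disc, sarcoplasmic and endoplasmic reticulum calcium handling, surface membrane calcium transport, MEF2 family and partners, and myogenic transcription factors. Marker lists cover skeletal muscle fibres, cardiac muscle, luminal prostate, fibroblasts and blood cells. All listed genes were found in the table. Some genes that these rules name are not reported here, and the luminal prostate list was summed without them. Coordinates are from GENCODE 44 and promoters from RefSeq. Reads, intervals and figures were made with matplotlib 3.10.9, scipy 1.17.1, pandas 2.3.3 and numpy 2.4.6 under Python 3.11.15. Alternatives were other scalings, pseudocounts, filters, variance models, a joint fit, a replicate block and leaving out each library.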

Additional observations from a re-analysis of the deposited data

Results flagged for a closer look

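For 5 of the genes chosen by the naming rule the effect of shCXCR7 differed between the lines by the interaction term of limma, with 3 libraries in each of the 4 groups. The value given is the log2 fold change in C4-2B-EnzR minus that in LNCaP-EnzR cells. ACKR3, the knockdown target, gave -0.70 (adjusted p = 0.0198), with knockdown libraries at 25.4% of control in C4-2B-EnzR and 41.5% in LNCaP-EnzR cells, and it no longer passed without LNCaP-EnzR LKO replicate 3 (adjusted p = 0.0577). ITPR1, an IP3 receptor of the reticulum, gave -1.16 (adjusted p = 0.000951), higher in 3 of 3 LNCaP-EnzR knockdown libraries than in any control and lower in 3 of 3 C4-2B-EnzR ones. CAMK2D, a kinase upstream of MEF2, gave 1.01 (adjusted p = 0.00345), with all knockdown libraries of C4-2B-EnzR at 2.22 RPKM or more and its controls at 1.08 RPKM or less.

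The tropomyosins TPM1 and TPM4 gave 0.69 (adjusted p = 0.00934) and 0.65 (adjusted p = 0.0271), both with the larger value in C4-2B-EnzR cells. TPM4 lost this call on leaving out LNCaP-EnzR LKO replicate 3, C4-2B-EnzR LKO replicate 2 or C4-2B-EnzR shCXCR7 replicate 1 or 3, with an adjusted p of at most 0.0692. It was also lost with no variance trend (adjusted p = 0.0524) and with the replicate number as a block (adjusted p = 0.0508). None of these 5 calls held on values as deposited, where LNCaP-EnzR shCXCR7 replicate 3 is not rescaled. For the 8 members the difference between the lines was not tested, and no member had all knockdown libraries higher in one line and all lower in the other. ITPR3 and CALU, outside the naming rule and named after their values were seen, were the other pathway genes called for this difference, at -0.51 (adjusted p = 0.0136) and 0.52 (adjusted p = 0.0168).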

How the results depend on the processing

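Without rescaling, on values as deposited, the LNCaP-EnzR results moved most. Pathway genes called there were 2 higher and 3 lower, against 11 and 15, no pathway gene (0 in each direction) was called for a difference between the lines, members without overlap were 1 higher and 3 lower, against 3 and 1, and ACKR3 gave -1.58 (adjusted p = 0.112). Pathway genes with a lower effect in C4-2B-EnzR cells numbered 5 under quantile normalization, 5 by voom on recovered reads and 4 with background taken off LNCaP-EnzR shCXCR7 replicate 3, both of the latter added after the data were seen, against 2. Leaving out 1 library at a time, members lower without overlap in LNCaP-EnzR cells ranged from 1 to 4, the 4 without shCXCR7 replicate 3. With the replicate number as a block, counts of pathway genes were 11 higher and 15 lower for LNCaP-EnzR, 8 and 15 for C4-2B-EnzR, and 3 and 2 for the difference between the lines, where TPM4 was lost, and TMEM38A was gained in C4-2B-EnzR cells. Same-numbered control and knockdown libraries did not deviate together (r from -0.111 to 0.058). With so few libraries in a group this cannot exclude a pairing, and the main fits used none. The remaining counts stayed within 1.5 times the main ones, and no result changed sign past its threshold. CASQ1, TNNC1 in C4-2B-EnzR and TNNT1 in LNCaP-EnzR cells rest on few reads, which limits the precision of their fold changes.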
